A study of Mus musculus with 8 samples.

Results

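The narrow autosomal EBF2 peaks are the peaks of 10 kb or less on chromosomes 1 to 19 in the Cut & Tag lists of 2 vector (Vec) and 2 Cre (*Cars2* knockout) EBF2 libraries. They numbered 935 of the 2593 EBF2 peaks and of the 5650 peaks in the 8 lists of the series, which also holds 4 libraries for H3K27ac. The cells were brown adipocytes (BAC). Their precursors came from interscapular brown fat of newborn mice with *Cars2* flox/flox alleles, were immortalized by SV40 large T antigen and then differentiated. Vec cells carried an empty retroviral vector (genotype WT in the labels) and Cre cells a retrovirus with Cre recombinase (CarS2-KO). Both groups therefore share the flox alleles, the large T antigen and the induction mixture. Whether each group was 1 line or more is not stated. The study states in general that measurements came from distinct samples and that culture experiments were repeated, but no source says for Cut & Tag whether replicates 1 and 2 were separate cultures, so any p-value measures only the spread between these libraries.

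EBF2 is an early B-cell factor, a DNA-binding protein that marks brown and beige precursors and acts at brown adipocyte genes together with PPARγ. As a dimer it reads a short palindrome with the core CCCNNGGG (N is any base). The factor binds at discrete places, so narrow peaks are the form in which its sites are usually read, and active promoters and enhancers carry H3K27ac on the surrounding histones. CARS2 is the mitochondrial cysteinyl-tRNA synthetase and also makes cysteine persulfide. The question of the comparison was whether loss of *Cars2* alters where EBF2 sits on chromatin.

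The bases under the peaks were read only where a promoter window lay under them, as a genome was not used here. These windows come from RefSeq (GRCm38.p6, the assembly of mm10) and run from 250 bases before to 50 after the start of a transcript. Narrow peaks lay over 22 windows in Vec replicate 1, 8 in Vec replicate 2, 27 in Cre replicate 1 and 24 in Cre replicate 2, which came to 69 window entries. *Snhg14* and *Snrpn* share 1 of these windows, and some other entries overlap. Of the entries, 11 lay under narrow peaks of at least 2 lists. Shown are a window covered in both Vec lists alone (*Cyp3a41a*, a liver cytochrome P450, chr5:145720087-145720386, minus strand), one covered in both Cre lists alone (*H2bc12*, a histone H2B gene, chr13:22035571-22035870, plus strand), one covered in Vec 1, Vec 2 and Cre 2 (*Olfr247*, an olfactory receptor, chr10:129975500-129975799, minus strand) and the one window under 2 lists that held the core (*Zfp947*, a zinc finger gene, Vec 1 and Cre 1, chr17:22165928-22166227, minus strand). They are written 5′ to 3′ on the strand of the gene, and capitals mark CCCNNGGG, which reads the same on both strands.
Cyp3a41a: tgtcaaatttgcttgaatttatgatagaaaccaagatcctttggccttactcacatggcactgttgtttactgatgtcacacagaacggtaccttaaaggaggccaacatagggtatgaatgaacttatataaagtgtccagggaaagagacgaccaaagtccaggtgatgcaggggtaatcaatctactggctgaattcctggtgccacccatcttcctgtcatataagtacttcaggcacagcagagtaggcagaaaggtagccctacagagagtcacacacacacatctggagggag
H2bc12: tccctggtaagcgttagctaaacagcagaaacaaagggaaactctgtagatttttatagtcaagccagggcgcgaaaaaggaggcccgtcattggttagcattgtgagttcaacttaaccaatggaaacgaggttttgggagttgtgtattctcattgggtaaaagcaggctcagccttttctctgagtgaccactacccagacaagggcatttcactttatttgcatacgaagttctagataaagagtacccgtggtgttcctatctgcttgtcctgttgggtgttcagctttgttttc
Olfr247: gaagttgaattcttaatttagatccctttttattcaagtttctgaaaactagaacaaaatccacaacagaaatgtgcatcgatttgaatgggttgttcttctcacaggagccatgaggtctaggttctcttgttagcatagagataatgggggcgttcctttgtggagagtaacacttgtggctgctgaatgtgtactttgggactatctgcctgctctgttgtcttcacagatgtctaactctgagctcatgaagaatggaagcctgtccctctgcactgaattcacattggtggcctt
Zfp947: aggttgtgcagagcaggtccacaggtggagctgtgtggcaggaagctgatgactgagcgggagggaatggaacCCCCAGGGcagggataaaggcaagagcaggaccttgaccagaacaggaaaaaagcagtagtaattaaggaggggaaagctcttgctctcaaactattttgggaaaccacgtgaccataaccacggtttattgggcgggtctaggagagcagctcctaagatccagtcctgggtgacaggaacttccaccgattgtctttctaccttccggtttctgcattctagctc
The core was found in 5 of the 69 entries (7.25%) and in 1 of the 11 under at least 2 lists (9.09%), beside 13.9% of all 31396 windows on chromosomes 1 to 19. By list, it was in 1 window of Vec 1, 1 of Vec 2, 4 of Cre 1 and 0 of Cre 2. The 4 of Cre 1 include a pair of overlapping *Slc44a1* windows that hold the same copy of the core. The other 3 sequences shown do not contain these letters, which says nothing about sites elsewhere under the peaks.

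Vec replicate 1 held 256 narrow peaks, Vec replicate 2 held 176, Cre replicate 1 held 245 and Cre replicate 2 held 258. The short list was Vec 2, and the other 3 lists lay close together. Vec averaged 216 ± 56.6 (SD, n = 2) and Cre 252 ± 9.19 (SD, n = 2), a log2 ratio of Cre to Vec of 0.22. The groups overlapped, and the gap of 35.5 peaks was less than the SD of Vec (p = 0.667, two-sided exact permutation test). For 4 libraries that test has 6 arrangements and cannot go below 0.333. Between the libraries numbered 1, Cre had 11 fewer peaks (log2 -0.06). Between those numbered 2 it had 82 more (log2 0.55), and with Vec 2 left out the log2 ratio was -0.03. The narrow peaks were 58.2%, 57.5%, 57.9% and 55.7% of the autosomal peaks of the 4 lists in the same order, but only 1.62%, 1.33%, 1.43% and 1.80% of the autosomal length covered by peaks.

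The Vec 2 library stood apart in coverage. From the deposited fold and p-value of a peak, the number of fragments stacked at its summit and the background expected there were recovered for 98.8% to 100% of narrow peaks. The median background was 7.38 in Vec 1, 1.39 in Vec 2, 8.26 in Cre 1 and 8.76 in Cre 2. The lowest summit pileup that made the list was 16 in Vec 1, 6 in Vec 2, 18 in Cre 1 and 18 in Cre 2. Most narrow peaks lay at this floor: 59.1% in Vec 1, 88.1% in Vec 2, 60.7% in Cre 1 and 54.9% in Cre 2 were within 2 fragments of the minimum of their list. The median fold over background was 2.25, 2.93, 2.27 and 2.15, highest in Vec 2 and lowest in Cre 2. A list holds only what passed the caller, so a site absent from 1 list may lie just under its floor.

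The median width was 2208 bp in Vec 1, 2238 bp in Vec 2, 2150 bp in Cre 1 and 2646 bp in Cre 2. Only Cre 2 was wider, and the groups overlapped (Vec 2223 ± 21.9 bp, Cre 2398 ± 351 bp, SD, n = 2 each, exact permutation p = 1.00). Among peaks with at least the median score of 21 the Cre lists were both wider, by 288 bp in the mean (exact permutation p = 0.333, the smallest possible). Peaks of 2000 bp or less made up 44.5% and 38.6% of the Vec lists and 42.4% and 31.4% of the Cre lists. Together the narrow peaks covered 756 kb in Vec 1, 501 kb in Vec 2, 695 kb in Cre 1 and 872 kb in Cre 2, a log2 ratio of 0.32 (exact permutation p = 0.667) that was 0.05 without Vec 2. Around the limit of 10 kb, the widest peaks kept measured 9832, 9974, 9620 and 9836 bp, and the narrowest left out 10024, 10428, 10068 and 10007 bp. The 130 to 205 wider autosomal peaks of a list had a median width between 70.7 and 113 kb.

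**Figure D1:**
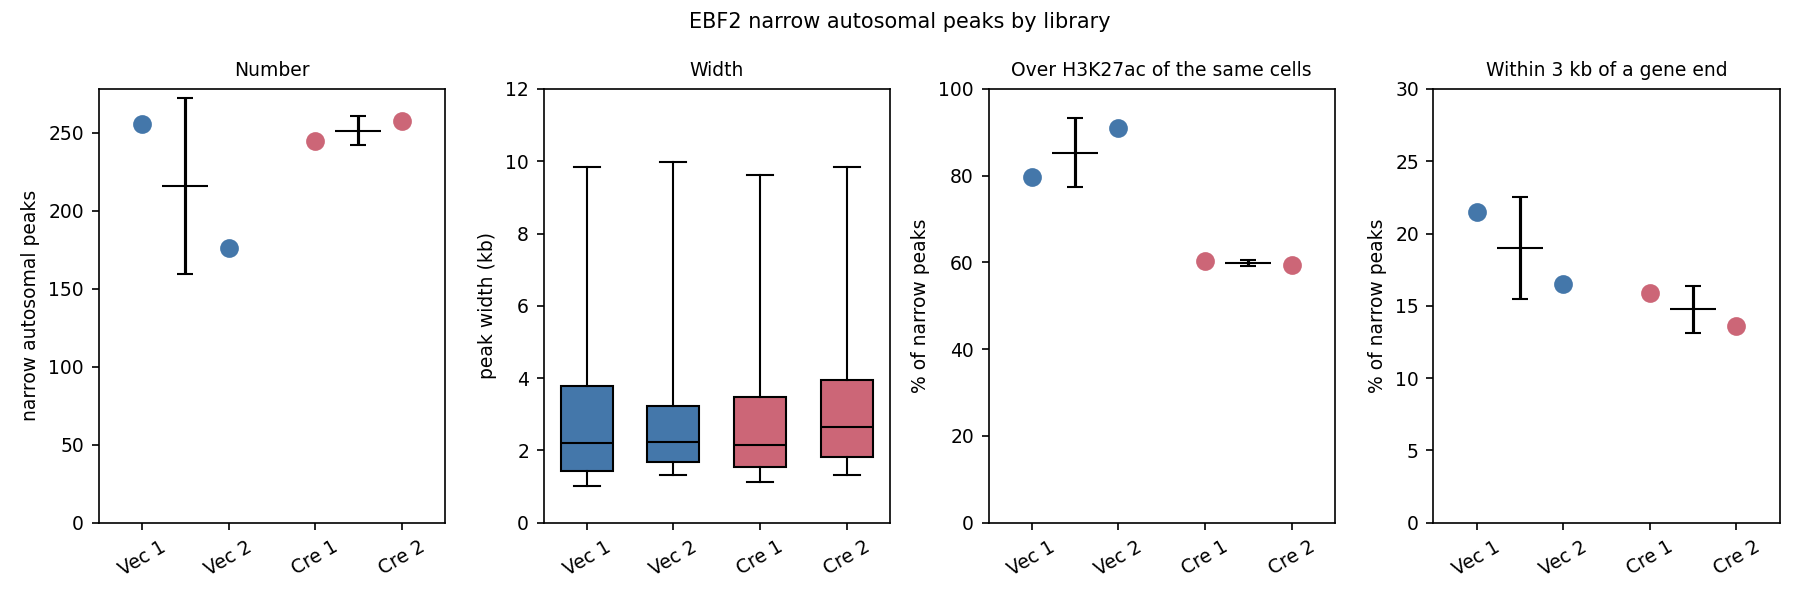
Number of narrow autosomal EBF2 peaks, their width in kb (box: quartiles and median, whiskers: lowest and highest), the percentage over an H3K27ac peak of the same cells and the percentage within 3 kb of either gene end (protein-coding genes), for each of the 2 Vec (blue) and 2 Cre (red) libraries. Black bars give mean ± SD (n = 2). Numbers and widths overlap between groups, while the Cre libraries lie below the Vec libraries in the last 2 panels.

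The share of narrow peaks over H3K27ac, a mark of active chromatin, was lower in every Cre list than in every Vec list. Of the narrow peaks, 79.7% in Vec 1 and 90.9% in Vec 2 lay over an H3K27ac peak of Vec cells, and 60.4% in Cre 1 and 59.3% in Cre 2 lay over an H3K27ac peak of Cre cells. The means were 85.3% ± 7.93 and 59.9% ± 0.782 (SD, n = 2 each), a fall of 25.4 percentage points, larger than the spread within either group. The exact permutation p of 0.333 is the smallest this design allows. The H3K27ac peaks covered nearly the same autosomal length, 53.7 Mb in the 2 Vec lists and 52.6 Mb in the 2 Cre lists. Against the Vec H3K27ac lists the shares were 79.7%, 90.9%, 59.2% and 65.9%, and against the Cre H3K27ac lists 65.2%, 89.8%, 60.4% and 59.3%. The Vec 2 narrow peaks were thus over H3K27ac whichever cells the mark came from. The order of the other 3 lists changed with the cells, and Vec 1 remained above both Cre lists when the H3K27ac replicates were pooled. It was also above them against each Vec H3K27ac list alone. Against Cre H3K27ac replicate 1 alone the shares were close, 51.6% in Vec 1, 50.6% in Cre 1 and 45.7% in Cre 2. Against Cre H3K27ac replicate 2 alone they were 54.3%, 54.7% and 53.9%, so Vec 1 lay between the Cre lists.

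Most of this overlap was with H3K27ac peaks wider than 10 kb. Narrow peaks over such wide peaks alone were 57.0% of Vec 1, 83.5% of Vec 2, 39.6% of Cre 1 and 32.9% of Cre 2. Those over a narrow H3K27ac peak were 22.7%, 7.39%, 20.8% and 26.4%, and here the groups overlapped (exact permutation p = 0.667). The gap between groups was larger in a few crowded stretches. In 21 windows of 1 Mb that had at least 7 narrow peaks in 1 list (a limit chosen after the values were seen), 37.0% of the Cre 1 and 49.6% of the Cre 2 peaks lay over H3K27ac, against 80.2% and 98.1% of the Vec peaks. Outside them the shares were 79.4% in Vec 1, 87.9% in Vec 2, 78.8% in Cre 1 and 67.4% in Cre 2. The difference fell from 25.4 to 10.5 percentage points there, and Cre 1 was within 1 percentage point of Vec 1. A window entered by its count in any 1 list, and some entered through the Cre lists alone. On chromosome 6 between 133 and 134 Mb the counts were 0, 0, 15 and 7, without any H3K27ac peak. The contrast between inside and outside is thus partly set by the choice of windows, and no conclusion is drawn from it. Among narrow peaks with at least the median score of 21 the difference was -14.6 percentage points.

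Within 3 kb of either end of a protein-coding gene lay 21.5% of the narrow peaks of Vec 1, 16.5% of Vec 2, 15.9% of Cre 1 and 13.6% of Cre 2. The means were 19% ± 3.54 and 14.7% ± 1.66 (SD, n = 2 each), a difference of -4.24 percentage points (exact permutation p = 0.333, the smallest possible), and Vec 2 and Cre 1 nearly met. The difference was -1.74 without Vec 1 and -6.74 without Vec 2. The groups overlapped at a width limit of 5000 bp (-4.27) and among peaks with at least the median score (-5.74), each with an exact permutation p of 0.667. At start sites alone the shares were 12.1%, 9.66%, 11.0% and 8.14%, and the groups overlapped (exact permutation p = 0.667). Between 30.1% and 34.4% of the narrow peaks lay in a protein-coding gene, with no separation of the groups. The share within 50 kb of a wide EBF2 peak was 50.8% in Vec 1, 41.5% in Vec 2, 43.7% in Cre 1 and 52.7% in Cre 2. The groups crossed there too, with a difference of 2.06 percentage points (exact permutation p = 0.667). Among peaks with at least the median score they did not cross, and the Cre lists were higher by 9.42 percentage points (exact permutation p = 0.333, the smallest possible).

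The same places were rarely called in any pair of lists. At a minimum overlap of 1 bp, 7.42% of the Vec 1 narrow peaks met a narrow peak of Vec 2, and 11.4% of Vec 2 met one of Vec 1. Between the Cre replicates the shares were 15.5% and 14.3%. Across cells, 15.2% of Vec 1 met Cre 1, 12.5% met Cre 2, and 15.9% and 13.6% of the Cre lists met Vec 1. Shares that involve Vec 2 and a Cre list were between 3.10% and 5.11%. The 4 shares between libraries of the same cells averaged 12.2% and ranged from 7.42% to 15.5%. The 8 shares between Vec and Cre averaged 9.21% and ranged from 3.10% to 15.9%, so the ranges overlapped. The same-cell mean was 2.95 percentage points above the other-cell mean, 10.8 without Vec 1, 0.621 without Vec 2, 0.965 without Cre 1 and -0.592 without Cre 2. The highest share of all was between Cre 1 and Vec 1, libraries of different cells. Their peak names carry neighbouring dataset numbers (596 and 597 in Vec 1, 598 and 599 in Cre 1, against 712 and 713 in Vec 2 and 702 and 703 in Cre 2). What these numbers stand for is not given in the sources used here, and their part in the overlap was not tested.

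Narrow peaks of Vec 2 mostly lay under wide peaks of the other lists. Pair by pair, those of the other 3 lists more often met no peak than only a wide one. Of the Vec 2 narrow peaks, 72.7% lay under only a wide peak in Vec 1, 76.7% in Cre 1 and 79.5% in Cre 2. With wide peaks counted as partners, 81.8% to 84.1% of Vec 2 was covered in each of the other lists, and 15.9% to 18.2% met no peak. In the 9 comparisons that start from another list, 45.3% to 90.6% met no peak and 5.71% to 42.2% only a wide one. Over the other EBF2 lists together, 47.7% of Vec 1, 35.1% of Cre 1 and 52.3% of Cre 2 met only a wide peak. No peak was met by 27.3%, 38.8% and 26.0%, so the order turned in Vec 1 and Cre 2. Vec 1 was covered to 53.1% and 54.7% by the Cre lists but to 18.4% by Vec 2. Cre 1 was covered to 38.8% by Vec 1, 9.39% by Vec 2 and 42.0% by Cre 2. Cre 2 was covered to 48.8%, 17.4% and 48.4% by Vec 1, Vec 2 and Cre 1. The low values all had Vec 2, the list with the lowest background, as the partner. Both Cre lists were covered about as often by Vec 1 as by each other.

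**Figure D2:**
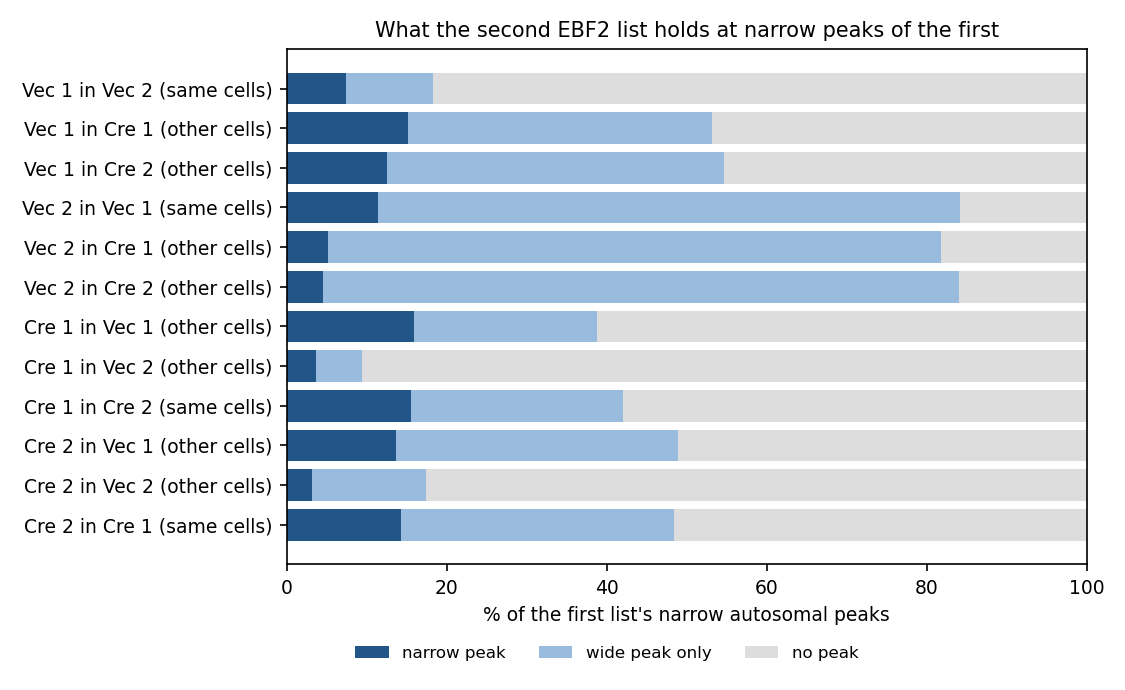
For each ordered pair of EBF2 lists, the percentage of narrow autosomal peaks of the first list that overlap a narrow peak of the second by at least 1 bp, only a peak wider than 10 kb, or no peak. Vec 2 peaks lie mostly under wide peaks of the other lists, and the narrow share does not exceed 15.9% in any pair.

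Where narrow peaks did meet, most pairs of summits lay more than 500 bp apart. The 39 overlapping pairs of Cre 1 and Cre 2 had a median distance between summits of 665 bp, and 17 were within 500 bp. The 20 pairs of Vec 1 and Vec 2 had 1290 bp, with 4 within 500 bp. Between cells the medians were 888 bp for Vec 1 and Cre 1 (39 pairs), 962 bp for Vec 1 and Cre 2 (36 pairs), 545 bp for Vec 2 and Cre 1 (9 pairs) and 1608 bp for Vec 2 and Cre 2 (8 pairs). Within 500 bp were 13, 12, 3 and 1 of these pairs in the same order. The wider partner was 1.36 to 1.64 times as wide in the median pair. Peaks with a narrow partner were the wider ones: in Vec 1 their median width was 3500 bp, against 1566 bp for peaks with no partner in another EBF2 list. In Vec 2 the medians were 2400 and 1566 bp, in Cre 1 2482 and 2063 bp and in Cre 2 3050 and 2856 bp. Under the rule of at least 1 bp in common, a wider peak meets a partner more easily. The order of these medians follows in part from that rule.

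Merged across the 4 lists, the narrow peaks formed 815 regions. Of these, 729 (89.4%) were in 1 list, 64 in 2, 18 in 3 and 4 in all 4. The regions of 1 list were 192 for Vec 1, 154 for Vec 2, 181 for Cre 1 and 202 for Cre 2. Regions of both Vec lists but of no Cre list numbered 8 (0.982% of 815). Regions of both Cre lists but of no Vec list numbered 21 (2.58% of 815). These counts depended on the settings. Those of both Vec lists fell to 5 at a width limit of 5000 bp, 3 with at least the median score and 2 at 50% reciprocal overlap. Those of both Cre lists fell to 10 with that score and to 10 at that overlap, and rose to 83 with partner peaks of any width. With such partners the regions in all 4 lists numbered 165. For EBF2 regions made from peaks of every width and chromosome, the shares were 0.490% and 3.80% of 816. The other pairings of 2 lists stood beside these counts with 21 regions for Vec 1 and Cre 1, 12 for Vec 1 and Cre 2, 2 for Vec 2 and Cre 1 and 0 for Vec 2 and Cre 2. The count in both Cre lists thus equalled that in the mixed pair Vec 1 and Cre 1. For comparison, narrow autosomal H3K27ac peaks of the same cells formed 1057 regions, with 75.2% in 1 list and 34 (3.22%) in all 4.

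**Figure D3:**
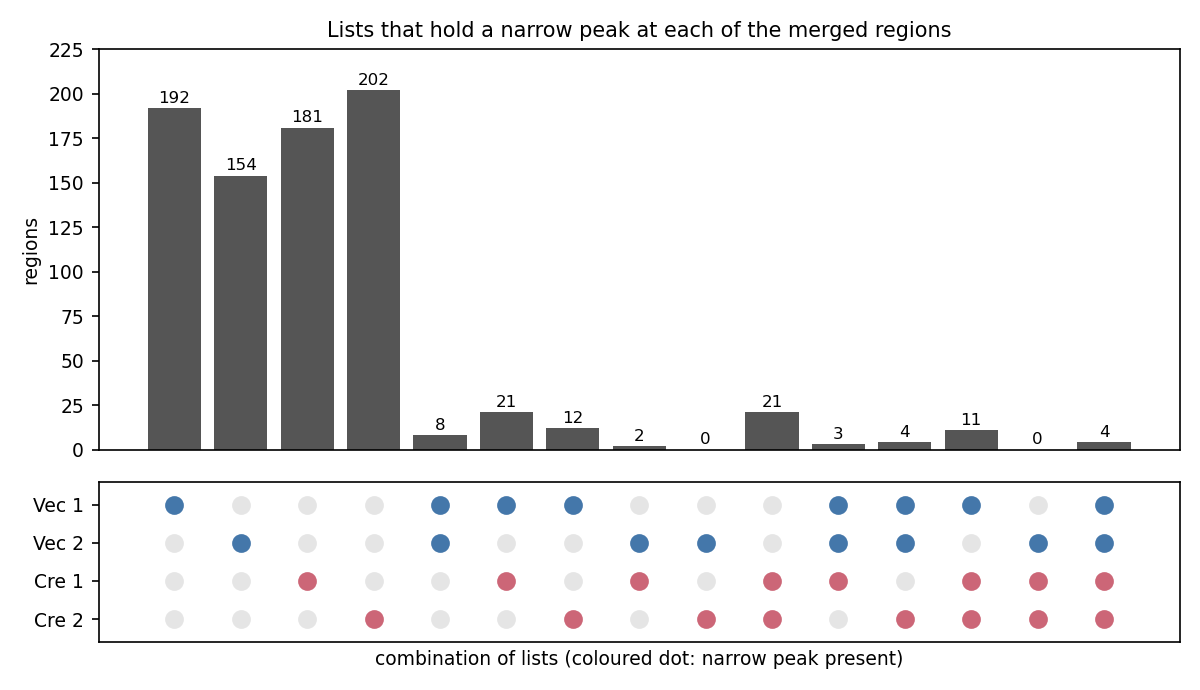
Number of the 815 merged regions (bars) with a narrow EBF2 peak in each combination of lists (coloured dots below). The 4 bars of a single list hold 729 regions, and 8 regions are in both Vec lists alone and 21 in both Cre lists alone.

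Of the 8 regions in both Vec lists alone, 4 carried a wide EBF2 peak in both Cre lists, 3 in Cre 2 alone, and 1 had no peak in either. That one covered the 5′ end of *Cyp3a41a*, a member of the cytochrome P450 3A family of steroid and drug oxidases (chr5:145717493-145724251, over the promoter window printed above). The peak was 6759 bp wide in Vec 1, with a fold of 2.39 and a summit pileup of 19, and 2191 bp wide in Vec 2, with a fold of 2.93 and a pileup of 6. The latter is the lowest pileup in its list. No H3K27ac list had a peak there.

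At 3 of the 8 the nearest gene was *Ercc4*, which encodes the XPF endonuclease of nucleotide excision repair. One was in the gene (chr16:13122280-13129082), one 3.53 kb from it (chr16:13100115-13105831) and one 13.1 kb from it (chr16:13091716-13096291). In Vec 1 these peaks had folds of 2.63, 2.02 and 2.39. In Cre 2 the same ground was under wide peaks of 21.1 and 14.1 kb, and Cre 1 had no peak there. The promoter window of *Ercc4* between them was under narrow peaks of Vec 1 and Cre 2. All 4 H3K27ac lists had peaks at each of the 3 regions, so the mark was called there in both cells.

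At the remaining 4 regions both Cre lists had a wide peak. The best ranked lay in *Vmn2r35*, a vomeronasal pheromone receptor (chr7:7798265-7808911), where the Vec peaks were 9.83 and 5.03 kb wide and the Cre peaks 297 and 306 kb. One lay 3.95 kb from *H2bc14*, a histone H2B gene (chr13:21726479-21729701), with Vec peaks of 3.04 and 1.64 kb and Cre peaks of 57.4 and 61.8 kb. One was 207 kb from *Mtrr*, which reactivates methionine synthase (chr13:68339862-68353690), with narrow Vec peaks of 6.59 and 9.23 kb and Cre peaks of 146 and 417 kb. Vec 1 also had a wide peak of 405 kb there, which reached into the region beside its narrow one. One was 11.4 kb from *Gm38418* (chr14:7628620-7632825), on the edge of Cre peaks of 4.62 and 4.65 Mb. All 4 regions thus had an EBF2 call in every list. It was narrow in both Vec lists and wide in both Cre lists at 3 of them, while at the *Mtrr* region Vec 1 had both kinds.

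Of the 21 regions in both Cre lists alone, 11 lay under a wide peak of Vec 1, none had a peak of Vec 2, and 10 had no EBF2 peak in either Vec list. The best ranked was the shared promoter of *H2ac12* and *H2bc12*, a histone H2A and H2B pair transcribed away from each other (chr13:22032061-22036138). The peak was 3.68 kb wide in Cre 1 with a summit pileup of 77, and 3.96 kb wide in Cre 2 with a pileup of 71, far above the floor of 18. Vec 1 had a wide peak of 204 kb that ended there, and all 4 H3K27ac lists covered it.

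The second was in *Tshr*, the thyrotropin receptor, which signals through cyclic AMP in thyroid and is also expressed in fat (chr12:91445691-91455040, inside the gene). Cre 1 had a peak of 9350 bp (fold 2.70, pileup 24) and Cre 2 one of 7121 bp (fold 2.66, pileup 25). Neither Vec list had an EBF2 peak of any width within 10 kb of the gene. The place carried H3K27ac in all 4 libraries, with peaks of 13.2 and 9.04 kb in Vec and 6.69 and 8.73 kb in Cre. The Cre pileups were 6 and 7 fragments above the list minimum of 18.

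The third was a microRNA cluster inside *Sfmbt2*, a Polycomb-group gene with one of the largest microRNA clusters of the mouse in an intron (chr2:10486344-10494045). The region touched genes of the *Mir466b*, *Mir467a*, *Mir669a* and *Mir669p* families. Cre 1 had a peak of 3214 bp (fold 2.48, pileup 22) and Cre 2 one of 7433 bp (fold 3.14, pileup 35). No Vec list had an EBF2 peak there, and all 4 H3K27ac lists did. Like *Tshr*, it carried the mark in both cells.

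Several other regions in both Cre lists alone and without a Vec peak lay outside genes. They were 31.4 kb from *Defb33*, a beta-defensin, 204 kb from *Lama2*, a laminin chain, 312 kb from *Pla2g4a*, the cytosolic phospholipase A2, and 312 kb from *1700008P02Rik*. Folds there were between 1.82 and 2.81, and summit pileups between 21 and 49. Each of these 4 regions had H3K27ac peaks in both Cre lists and at least 1 Vec list. A region 42.9 kb from *Gm32719* (chr12:20194853-20197845) had H3K27ac peaks in both Cre lists and in neither Vec list. A region near *5530400C23Rik* (chr6:133330815-133341190) and 2 near *Gm5885* on the same chromosome had no H3K27ac peak in any list. Under wide Vec 1 peaks lay a region in *Snhg14*, the host of the small nucleolar RNAs of the imprinted Prader-Willi locus (chr7:59719523-59723819), and 2 near *Topaz1*, a germ cell gene. Regions in *Igh*, the immunoglobulin heavy chain locus on chromosome 12, also lay under a wide Vec 1 peak, without H3K27ac. Their nearest protein-coding gene, *Zfp386*, was 752 to 787 kb away. All 4 H3K27ac lists had peaks at 10 of the 21 regions and none at 6. For the 8 regions in both Vec lists alone the numbers were 6 and 1.

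**Figure D4:**
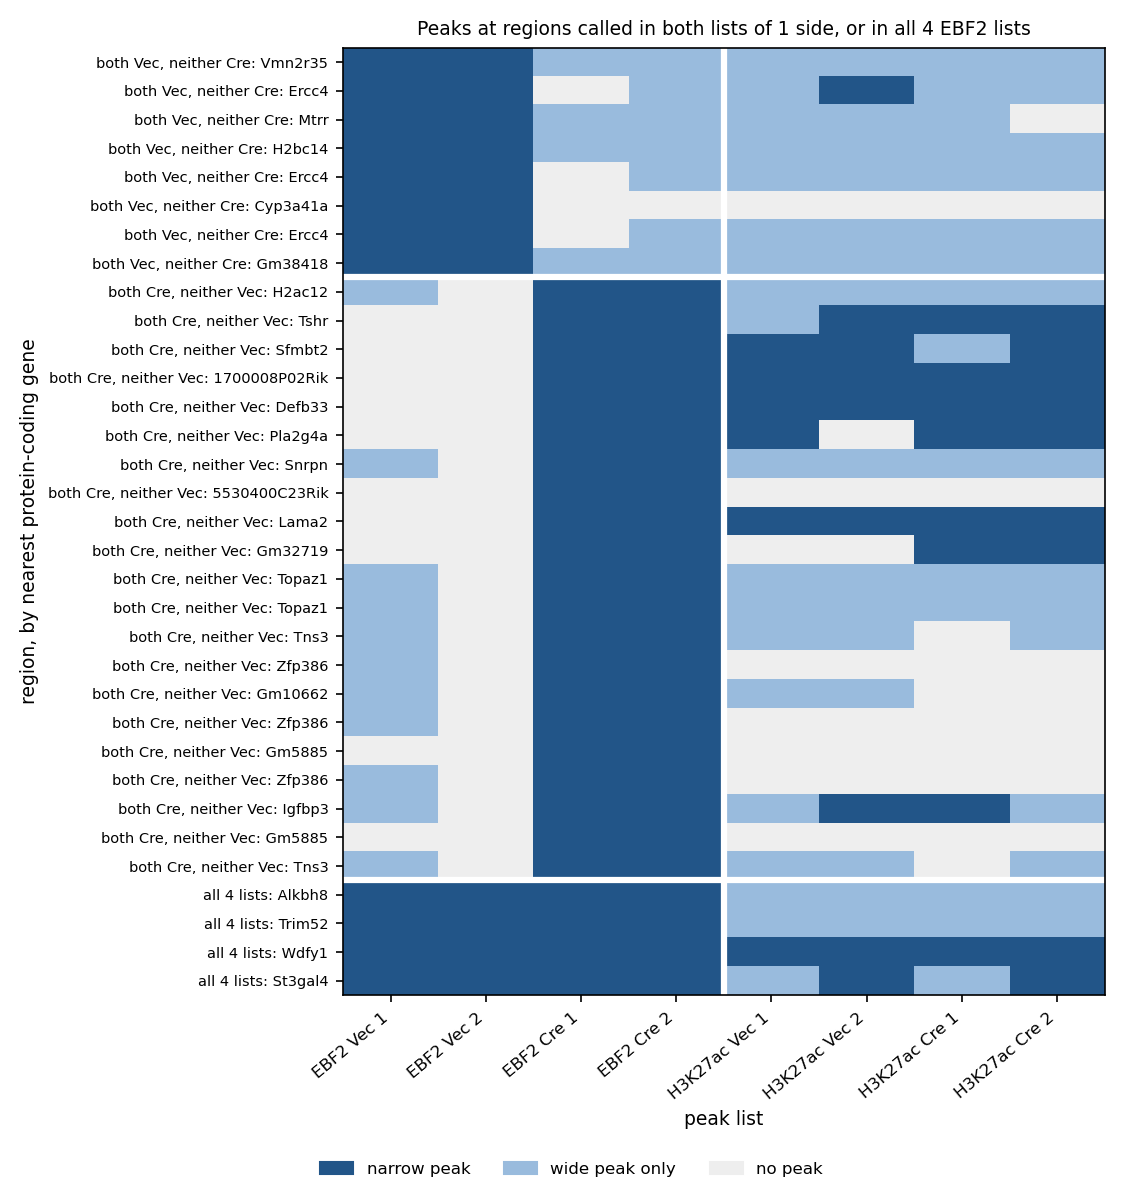
Kind of peak in the 4 EBF2 and 4 H3K27ac lists at the 8 regions with narrow EBF2 peaks in both Vec lists alone, the 21 in both Cre lists alone and the 4 in all lists, named by the nearest protein-coding gene (dark: narrow peak, light: peak wider than 10 kb only, grey: no peak). In 7 of the 8 Vec regions at least 1 Cre list has a wide peak, and 10 of the 21 Cre regions have no Vec peak. The names give no distance. Regions named *Zfp386* lie 752 to 787 kb from it, in the immunoglobulin heavy chain locus *Igh*, and those named *Tns3* 489 and 504 kb from it.

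Narrow peaks of all lists met in 4 regions. The best peak of every list by score stood at the very start of the assembled part of chromosome 9 (chr9:3000419-3002988), 332 kb from *Alkbh8*, a gene for a tRNA-modifying enzyme. Its width was 2570 bp in Vec 1, 2520 bp in Vec 2, 2537 bp in Cre 1 and 2338 bp in Cre 2, and its fold 4.17, 4.03, 3.0 and 3.54. In *Wdfy1*, an endosomal adaptor of Toll-like receptor signalling (chr1:79719673-79726874), the fold was 4.18, 4.19, 3.0 and 2.68, and all 4 H3K27ac lists had a narrow peak. In *St3gal4*, a sialyltransferase (chr9:35073737-35083292), the fold was 3.58, 3.35, 3.17 and 2.87. At a group of *Frg2f* genes on chromosome 14 (chr14:106465154-106475346) it was 3.94, 3.97, 3.65 and 3.28. Folds were lower in both Cre lists than in both Vec lists at each of the 4 regions. The fold is relative to the background of its own library, which differed between the lists, so it does not compare binding between libraries. Other peaks among the best 3 of a list lay at chr9:3024178-3026620 and chr14:19415809-19417637, each a narrow peak in Vec 1, Cre 1 and Cre 2 and absent from Vec 2. The next 2 peaks of Vec 2 after its best lay at chr9:3005895-3010707, with narrow peaks in both Vec lists and Cre 1, and over *Olfr247* at chr10:129970546-129979802, with narrow peaks in both Vec lists and Cre 2.

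By gene, 123 of the 20665 autosomal protein-coding genes (0.595%) had a narrow peak in or within 10 kb of them in Vec 1, 76 (0.368%) in Vec 2, 99 (0.479%) in Cre 1 and 84 (0.406%) in Cre 2. Any list reached 272 genes (1.32%), and 188 of them were reached in 1 list only. Both Vec and neither Cre list reached 11 genes (0.0532% of all), among them *Ugt1a10*, which conjugates glucuronic acid, *Alms1*, a centrosomal protein, and *Naip6* of the inflammasome sensors. Both Cre and neither Vec list also reached 11 (0.0532%), among them *Cflar*, an inhibitor of caspase-8, and *Slc44a1*, a choline transporter. *Wdfy1*, *St3gal4* and *Tex14*, a germ cell gene, were reached in all 4 (0.0145%). Lists can reach 1 gene by peaks at different places. None of the regions in both Vec lists alone, both Cre lists alone or all 4 lists was nearest to *Ugt1a10*, *Alms1*, *Naip6*, *Cflar*, *Slc44a1* or *Tex14*. These are thus not shared sites.

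Of 45 genes of thermogenesis and brown adipocyte identity, 1 had a narrow peak within 10 kb in any list (2.22%, beside 1.32% of all genes), namely *Tshr* in both Cre lists. Of 67 genes of the actin cytoskeleton, 1 did, *Rdx*, whose product radixin links actin to the membrane, with a peak of 1024 bp in Vec 1 at 3.29 kb (fold 2.07). None of 49 genes of lipid metabolism did, none of 29 adipogenic transcription factors and EBF2 partners, and none of 23 genes of cysteine and sulfide metabolism. At the share of all genes, lists of this length would hold less than 1 gene, so these counts do not set them apart. The cell identity could not be checked from the peaks, since no narrow peak lay by any of the 12 brown adipocyte, 8 adipocyte, 7 preadipocyte and fibroblast, 5 muscle, 3 macrophage and 3 endothelial marker genes. Nor did an EBF2 peak of any width lie within 10 kb of these markers in any list. The same held for the lipid, adipogenic factor and cysteine lists.

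The nearest narrow peak to *Ucp1*, the uncoupling protein of brown fat, was 21.6 Mb away in Vec 1, 23.2 Mb in Vec 2, 23.2 Mb in Cre 1 and 27.8 Mb in Cre 2. For *Prdm16*, a coregulator of brown fat fate, it was 0.206, 6.96, 0.209 and 8.80 Mb away. For *Pparg*, the adipogenic nuclear receptor, it was 0.378, 9.90, 9.05 and 14.2 Mb, and for *Dio2*, which activates thyroid hormone, 22, 2.79, 0.707 and 0.707 Mb. For *Ebf2* itself it was 1.95, 13.7, 7.93 and 2.09 Mb, and for *Cars2* 27.6, 10.1, 9.30 and 9.31 Mb. No list had a narrow peak near enough to these genes to be assigned to them. The deletion of *Cars2* itself cannot be seen in a peak list.

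Of the groups and families counted, histone genes had the highest share reached in at least 1 list. They package DNA, and most lie in clusters on chromosome 13, which holds 54 of the 75 counted. A narrow peak lay within 10 kb of 15 of them in Vec 1, 9 in Vec 2, 22 in Cre 1 and 14 in Cre 2, and of 43 (57.3%) in at least 1 list. These are 20%, 12%, 29.3% and 18.7% of the histone genes, beside 0.595%, 0.368%, 0.479% and 0.406% of all protein-coding genes, and 1.32% of all genes in at least 1 list. The genes stand close together, so 1 peak can reach several of them. Of the 43, 26 were reached in 1 list, 17 in 2 and none in 3 or 4. Both Vec and neither Cre list reached *H2ac13*, *H3c10*, *H2bc14* and *H4c11*. Both Cre and neither Vec list reached *H2ac12*, *H2bc12*, *H4c9*, *H2ac11* and *H2bc11*. Each side reached 0.0532% of all protein-coding genes in this way.

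With peaks of any width counted, 38 histone genes were reached in Vec 1, 20 in Vec 2, 54 in Cre 1 and 40 in Cre 2, and 20 were reached in all 4, out of 75. Of all 20665 protein-coding genes, peaks of any width reached 834, 638, 840 and 807, with 602 in all 4. The 4 genes with narrow peaks in both Vec lists alone all lay by wide peaks in both Cre lists. The 5 genes with narrow peaks in both Cre lists alone all lay by a wide peak in Vec 1, and *H2ac12* and *H2bc12* also in Vec 2. *H2ac10*, *H3c8*, *H2bc9*, *H3c7*, *H4c6* and *H1f3* were reached by Cre 1 alone, at any width.

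**Figure D5:**
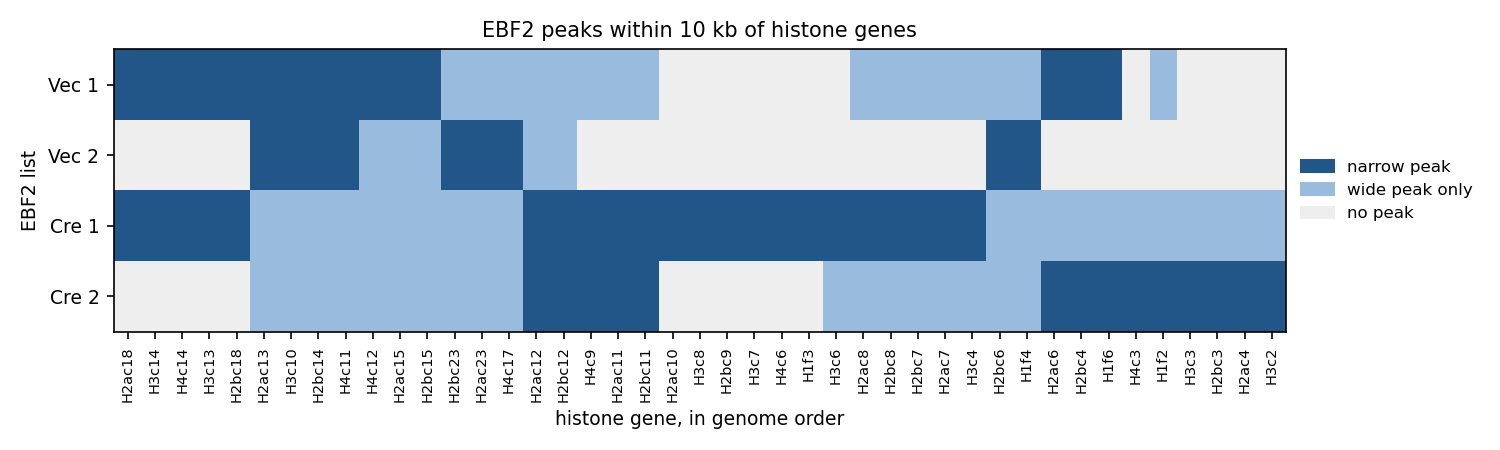
The 43 histone genes with a narrow EBF2 peak within 10 kb in at least 1 list, in genome order, with the kind of peak in each of the 4 lists (dark: narrow, light: wider than 10 kb only, grey: none). No gene has a narrow peak in more than 2 lists.

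The other families are set beside the shares of all protein-coding genes, which were 0.595% in Vec 1, 0.368% in Vec 2, 0.479% in Cre 1 and 0.406% in Cre 2. UDP-glucuronosyltransferases, which make drugs and steroids soluble and include the *Ugt1a* first-exon variants of 1 locus, were reached for 6 of 22 in Vec 1, 1 in Vec 2, 0 in Cre 1 and 1 in Cre 2, and the share of 27.3% in Vec 1 was above that of histone genes in the same list. Vomeronasal receptors were reached for 6, 1, 6 and 4 of 354 (1.69%, 0.282%, 1.69% and 1.13%). With any width counted the numbers were 84, 67, 93 and 91. As for all protein-coding genes (834, 638, 840 and 807 of 20665 at any width), most vomeronasal genes by a peak lay by a wide one. Olfactory receptors were reached for 2, 5, 0 and 2 of 1104 (0.181%, 0.453%, 0% and 0.181%), near or below the shares of all genes. Predicted *Gm* genes were reached for 28, 24, 13 and 15 of 967 (2.90%, 2.48%, 1.34% and 1.55%), with both Cre lists below both Vec lists. At any width they were reached for 327, 271, 320 and 315, with Vec 2 lowest and the groups overlapping. Neither order was tested. In families of similar genes, short reads may fit more than 1 locus. How such reads were placed is not given in the sources used here, and their part in these counts was not tested.

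The narrow peaks were clustered along the chromosomes. Within 100 kb of another narrow peak of the same list lay 72.3% in Vec 1, 68.8% in Vec 2, 74.7% in Cre 1 and 79.8% in Cre 2 (exact permutation p = 0.333, the smallest possible, Cre 6.76 percentage points higher). Peaks fell in 108, 79, 96 and 91 windows of 1 Mb. The 21 crowded windows held 35.5%, 29.5%, 44.1% and 45.3% of the narrow peaks. A window entered this set with at least 7 narrow peaks in any 1 list. That single lists led many of the windows, and the shares held there, follow in part from this rule. The windows below are therefore described only. On chromosome 11 between 7 and 8 Mb, a window that also holds *Igfbp1* and *Igfbp3*, carriers of insulin-like growth factors, Vec 1 and Vec 2 had 0 narrow peaks, Cre 1 had 4 and Cre 2 had 23. Vec 1 had instead 410 kb under wide peaks there. The 3 regions of both Cre lists alone in this window lay 374 to 504 kb from the nearest protein-coding gene.

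On chromosome 4 between 53 and 54 Mb, which includes *Abca1*, a cholesterol exporter, and *Slc44a1*, the counts were 0, 0, 1 and 20, with 216 kb under wide peaks in Cre 1 and 110 kb in Cre 2. On chromosome 6 between 133 and 134 Mb, by bitter taste receptor genes, they were 0, 0, 15 and 7, with 121 kb under wide peaks in Cre 2. No H3K27ac peak of any list lay in that window. On chromosome 2 between 54 and 55 Mb they were 0, 8, 0 and 0, and the other 3 lists had 291 to 297 kb under wide peaks. On chromosome 13 between 13 and 14 Mb, by the proliferin genes *Prl2c2* and *Prl2c5*, they were 18, 0, 3 and 3. On chromosome 9 between 22 and 23 Mb they were 1, 0, 11 and 0. Of the 21 windows, only the one on chromosome 6 had several narrow peaks in both Cre lists with no EBF2 peak in the Vec lists.

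Chromosome by chromosome the lists also differed within a cell type. Chromosome 13 held 24.6% of the narrow peaks in Vec 1, 13.6% in Vec 2, 11.4% in Cre 1 and 6.59% in Cre 2, so both Vec lists were above both Cre lists. Chromosome 6 held 3.12% and 3.41% in Vec and 9.39% and 7.75% in Cre. Chromosome 12 held 4.69%, 18.2%, 18.0% and 6.20%, where the replicates of each cell type were on opposite sides. The groups also did not overlap on chromosomes 1 and 9 (Cre higher) and on 5, 16, 17 and 18 (Cre lower). On all others but 6 and 13 they overlapped. With 2 lists a side, an exact permutation test could not go below 0.333 for any chromosome. No test was made of these shares, and no shift between cells is read from them.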

How the data were processed

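Cut & Tag peak lists of 4 EBF2 and 4 H3K27ac libraries were used, 1 list per library, with 50000 cells per sample. Per the labels and the submitters' processing notes, the authors used bcl2fastq 2.17, Trimmomatic 0.33, HISAT2 2.2.1, MACS2 2.2.7 and mm10. Caller settings, duplicate handling and any control library are not given in the sources used here. The deposited score is −log10 of the q-value times 10. The deposited fold is the ratio of a peak to the caller's background. The deposited −log10 p-value was used with the fold to recover pileup and background (tolerance 0.01). Read depth is unknown, so no interval was computed. Library groups came from the sample titles. In EBF2 Cre replicate 1 the peaks are named BAC_Cars2AKO, with BAC as in the label and Cars2AKO as the study names a knockout mouse, and the label was followed.

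Peaks on chromosomes 1 to 19 of 10000 bp or less were intersected (at least 1 bp in common), also with RefSeq genes of GRCm38.p6, and by exact permutation tests (two-sided). Regions were made by merging overlapping peaks of the 4 lists. Counts of regions have no test. The members, gene lists and rules were chosen with earlier results of these data known. Named genes were those nearest to regions called in both lists of 1 side, to the regions in all 4 lists and to the best 3 peaks of each list, list members with a peak within 10 kb, and genes of the study. A planned limit of 100 kb to the nearest gene was not applied, so some named genes lie farther away. Windows and histone genes were named after their values were seen. Alternatives were other width limits, a score minimum, chromosome X, other overlap rules and gene windows, and leaving out each library. Region functions were tested on simulated data. Computations used matplotlib 3.10.9, scipy 1.17.1, pandas 2.3.3 and numpy 2.4.6 under Python 3.11.15.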

Additional observations from a re-analysis of the deposited data

How the results depend on the processing

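Of 110 recomputed values, 86 met the rule for their kind: the same direction for a difference between groups, within 1.5 times for a count of regions, and the same direction within 1 SD over the list pairs for the overlap difference. A kept direction could come with another size, as for the difference beside wide peaks (0.293 percentage points at 20000 bp). No setting reversed the lower share of Cre peaks over H3K27ac (-14.6 to -33.3 percentage points in 12 settings). The split outside the crowded windows (-10.5), also among the 86, used windows chosen after the values were seen, so it carries no conclusion. No setting left out Vec 2 and also used the H3K27ac lists of 1 cell type for both groups. Against both Vec H3K27ac lists, Vec 1 was at 79.7%, beside 59.2% in Cre 1 and 65.9% in Cre 2. Against both Cre lists it was at 65.2%, beside 60.4% and 59.3%, and against Cre replicate 2 alone at 54.3%, beside 54.7% and 53.9%. At gene ends no setting reversed the difference (-1.30 to -6.74). The groups overlapped there at a width limit of 5000 bp, with at least the median score and at start sites of the promoter table. Each had an exact permutation p of 0.667. With that score the groups no longer overlapped in width (288 bp) or beside wide peaks (9.42 percentage points, exact permutation p = 0.333 each). The H3K27ac range without 1 library was -31.1 to -19.8. Leaving out 1 library gave a log2 ratio of number between -0.03 and 0.51, a width difference between -73.0 and 424 bp, and a difference beside wide peaks between -2.59 and 6.72 percentage points. The signs turned without Vec 2 (number, wide peaks) or Cre 2 (width, wide peaks). The replicate block gave log2 0.24 for number and 0.34 for length and changed no direction. The labels name no source shared by same-numbered libraries. Their deviations correlated at 0.020 over 815 regions, of which 729 were in 1 list and say little about pairing, so whether the numbers pair the libraries is not known.

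Regions in both Vec lists alone were 5 at a width limit of 5000 bp, 3 with at least the median score of 21 and 2 at 50% reciprocal overlap, and 11 to 200 without 1 library. Those in both Cre lists alone were 10 with that score, 10 at 50% reciprocal overlap and 83 with partner peaks of any width, and 21 to 223 without 1 library. Regions in all 4 lists were 1 at 5000 bp, 7 at 20000 bp and 165 with partners of any width, and 4 to 15 without 1 library. Without 1 library of a side, a region needs only the other one. The count in both Cre lists stayed at 21 without Vec 2, and that in all 4 lists at 4 without Vec 1. The same-cell overlap exceeded the other-cell overlap by 2.95 percentage points, by -0.592 to 10.8 without 1 library and by -0.285 with partners of any width. The unknown depth and the low coverage of Vec 2 limit every count.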
